A study of Mus musculus with 15 samples.

Results

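The genes described here are 34 classical targets of type I interferon signalling, out of 38087 rows in a table of exon read counts from cultured primary mouse hepatocytes. They were chosen by name from a list of 34 symbols. Of these, 33 were found in the table by symbol, and Ifi27 was found by its Ensembl identifier because the table names that gene Ifi27l1. All 34 passed the filter on low counts and were among the 17405 genes tested.

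Type I interferons bind a receptor made of Ifnar1 and Ifnar2, whose kinases Jak1 and Tyk2 activate transcription factors of the Stat family, among them Stat2. A complex that holds Stat2 and Irf9 binds the interferon-stimulated response element (ISRE) in the promoters of target genes, while the gamma-activated sequence (GAS) is known mainly from the response to interferon gamma. The targets include the cytosolic sensors that detect viral RNA, the transcription factors of the pathway itself, and effectors that block viral translation, replication or release. The liver receives microbial products from the gut through the portal vein, and hepatocytes carry the interferon receptors.

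Cryopreserved hepatocytes of CD-1 mice were plated on collagen under a Geltrex overlay and cultured with serum from conventionally raised (ConvR) or germ-free (GF) mice, and their total RNA was sequenced after depletion of ribosomal RNA. In 4 groups the cells were female. They received ConvR female serum (2 libraries), ConvR male serum (3 libraries), GF female serum (2 libraries) or GF female serum followed by growth hormone (GH, 3 libraries). Male cells received ConvR male serum (3 libraries). In every group the serum made up 25% of a defined medium with dexamethasone, insulin, transferrin, selenous acid, albumin and linoleic acid, and stayed on the cells for 24 h. Mouse GH at 8 ng/ml, or its vehicle in the other 4 groups, was then added for 2 h. The labels give the female and the male cells as separate donor stocks, so the sex of the cells and the donor stock cannot be told apart. They do not say how many mice gave serum or cells, nor whether the replicates are separate cultures. The p-values therefore measure the spread between these libraries, which may be technical. For the same reason, the sex or germ-free status of the serum donors cannot be told apart from the particular serum used.

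Promoter stretches of some of the members are shown first. Mx2, Zbp1, Parp14, Dhx58 and Rtp4, which fall in comparisons below, had no promoter window and are not printed. Of the 34 genes, 25 had a promoter window in RefSeq (mouse build GRCm38.p6), and the 250 bases before each start were searched on both strands. The core of the ISRE, searched as 2 copies of GAAA with any 2 bases between them, on either strand, lay in 9 of the 25 genes (36.0%), against 3.46% of the 27025 genes with a window. The GAS motif TTCNNNGAA, which is its own reverse complement, lay in 6 of the 25 genes (24.0%), against 8.13% of all genes with a window. In Bst2 a GAS match and an ISRE match shared bases. A match describes these letters only and is not evidence of a bound site. Below, each stretch is read 5′ to 3′ on the strand of its gene, with the matches in capitals. Ifit1 (chr19:34640775-34640823, plus strand) and Ifit3 (chr19:34583363-34583426, plus strand) each held 2 ISRE matches. Isg15 (chr4:156200865-156200906, minus strand) held 3 overlapping ISRE matches, and Rsad2 (chr12:26456553-26456582, minus strand) held 1. The neighbouring paralogs Oas1a (chr5:120907526-120907555, minus strand) and Oas1g (chr5:120887614-120887641, minus strand) each held 2 overlapping ISRE matches next to the start. Irf1 (chr11:53769914-53769942, plus strand) held a GAS match. Oasl1 (chr5:114923180-114923239, plus strand) held neither motif, as did 12 of the 25 genes in all, among them Ifi44, Trim21 and Xaf1. The last 60 bases before the start of Oasl1 are printed because results below turn on it.
Ifit1: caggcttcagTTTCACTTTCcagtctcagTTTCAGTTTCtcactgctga
Ifit3: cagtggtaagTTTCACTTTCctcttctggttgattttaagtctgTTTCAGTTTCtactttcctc
Isg15: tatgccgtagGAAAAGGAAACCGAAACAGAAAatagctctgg
Rsad2: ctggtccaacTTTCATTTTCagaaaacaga
Oas1a: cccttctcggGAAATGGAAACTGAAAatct
Oas1g: cccttctcggGAAATGGAAACTGAAAat
Irf1: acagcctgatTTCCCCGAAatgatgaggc
Oasl1: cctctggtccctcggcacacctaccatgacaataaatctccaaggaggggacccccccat

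Library totals ran from 34097400 to 48742274 counts. Levels are given as CPM, the count scaled to a common library total and corrected by edgeR's trimmed mean of M values (TMM), and folds come from edgeR's quasi-likelihood test over all 5 groups. A gene is said to rise or fall where its p, adjusted over all 17405 genes by the Benjamini-Hochberg method, was below 0.05. Albumin, transferrin and the other hepatocyte markers on a list of 8 summed to 18879.8 to 25039 CPM in the female-cell libraries and to 37157 to 38021 CPM in the male-cell libraries. A list of 9 lymphocyte and plasmacytoid dendritic cell markers, which includes the main interferon-producing cell of blood, summed to 0.86 to 2.07 CPM over all libraries. On that list, Nkg7 had 1 count and Ms4a1 6 counts over all 13 libraries. Xist, the RNA of the inactive X chromosome, was at most 0.0921 CPM in male cells. In female cells it was 481 CPM in replicate 2 of the ConvR female serum group and 685 CPM in replicate 1 of the GH group, against 268 to 395 CPM in the other 8 libraries. The counts of genes called in comparisons that use these 2 libraries are also given without them.

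The members differed widely in level without any added interferon. Per kilobase of exon, Bst2, also called tetherin, which holds budding virions at the cell surface, had the highest level, with group means between 208 and 238 CPM per kb. The ubiquitin-like modifier Isg15 followed, with group means of 80.9 to 97.9 CPM per kb, and Usp18, the protease that removes Isg15 from proteins and dampens receptor signalling, stood at 45.9 to 52.0 CPM per kb. The sensors Ifih1 (MDA5), Ddx58 (RIG-I) and Dhx58 (LGP2) had group means between 10.1 and 18.1 CPM per kb. At the other end were the dynamin-like GTPase Mx1, at 0.077 to 0.255 CPM per kb, and the 2-5A synthetase Oas2, at 0.052 to 0.083 CPM per kb. Mx1 rested on 7 to 47 counts per library and Oas2 on 7 to 20 counts per library. The lowest count of any of the other 32 members in any library was 70. The members came in clusters on build mm10: Ifit1, Ifit2 and Ifit3 lie together on chromosome 19 (34550694 to 34650009), Oas1a, Oas1g, Oas2 and Oas3 on chromosome 5 (120730333 to 120907521), Oasl1 and Oasl2 elsewhere on chromosome 5 (114896936 to 114937915), Rsad2 and Cmpk2 on chromosome 12 (26442746 to 26479837), and Mx1 and Mx2 on chromosome 16 (97447035 to 97560900). The annotation lists Mx2 as a polymorphic pseudogene and the other 33 members as protein-coding. Values are sums over the exons of a gene. Exons of Dhx58, Irf1, Irf7, Irf9, Oasl1, Ifi35 and Eif2ak2 overlap those of another gene, and since the use of strand in the counting is not given, reads in the shared bases cannot be told apart.

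**Figure D1:**
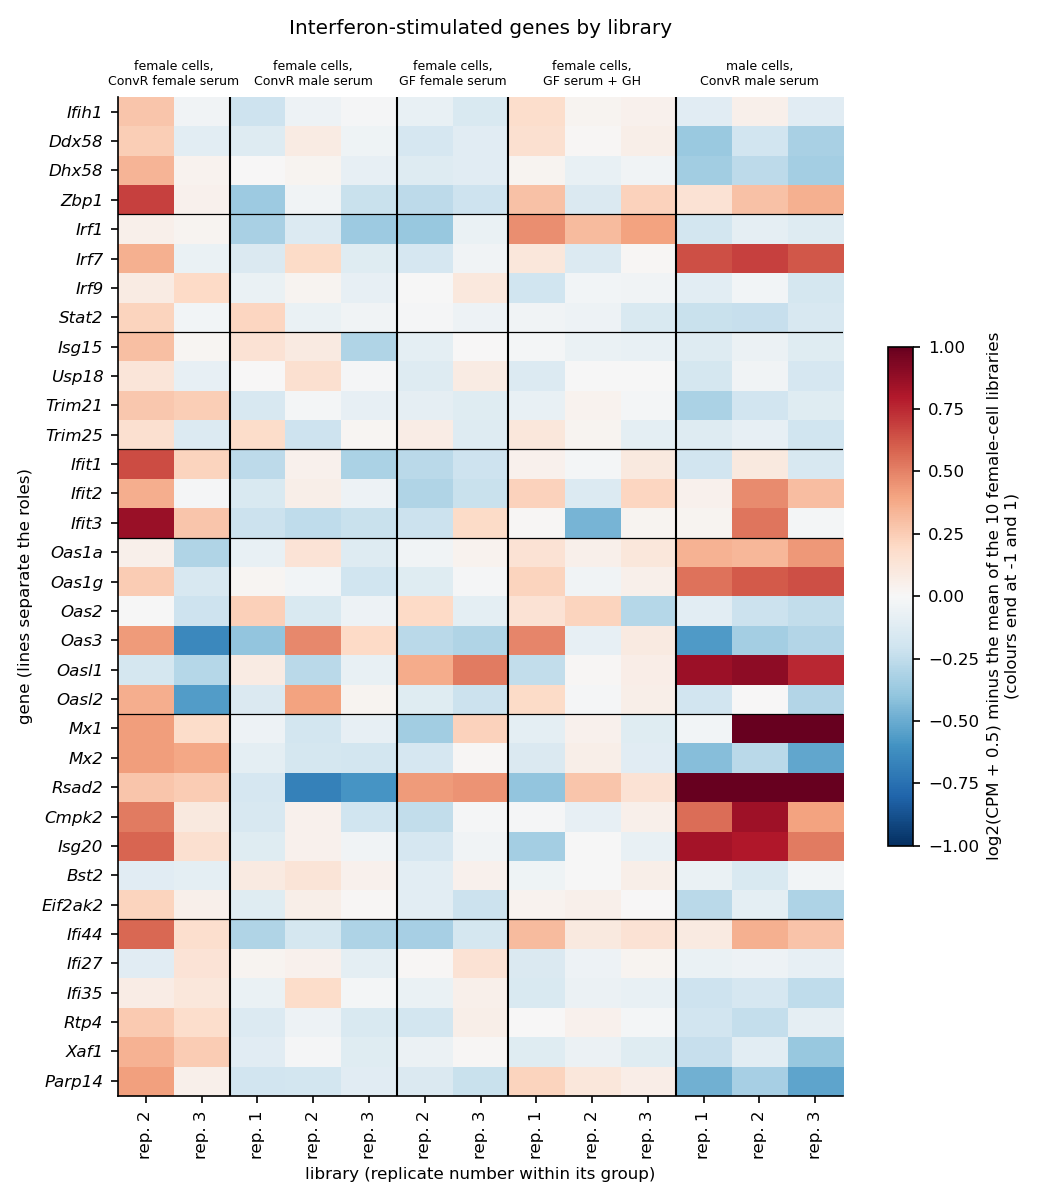
Each row is 1 of the 34 genes, ordered by role, and each column 1 of the 13 libraries. Colour gives log2(CPM + 0.5) minus the gene's mean over the 10 female-cell libraries, ending at -1 and 1. The columns of the ConvR female serum group, above all replicate 2, are red for most genes, and the 3 male-cell columns hold both the reddest and many blue cells.

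Female cells in GF female serum were compared with those in ConvR female serum, which asks whether serum from mice without a microbiota sets another level of these genes. In GF serum 9 members fell and 1 rose, against 3.54% lower and 2.86% higher among all genes tested (6.41% in either direction). The median log2 fold change of the 34 genes was -0.26, against -0.0027 over all genes, and 28 of the 34 were below 0, against 50.4% of all genes. In 19 members both GF libraries lay below both ConvR libraries and in 2 above, against 26.2% and 23.7% of all genes. The 9 that fell were Ifit1, Ifi44, Zbp1, Mx2, Parp14, Trim21, Xaf1, Dhx58 and Eif2ak2. The rise was Oasl1.

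Ifit1, which binds viral RNA that lacks a methylated cap, was at 35.5 and 37.3 CPM in GF serum and at 68.0 and 50.2 CPM in ConvR serum. Both GF libraries lay below both ConvR libraries, and the log2 fold change was -0.70 ± 0.137 (SE; adjusted p = 0.00677). The microtubule-associated Ifi44 was at 13.4 and 14.9 CPM against 25.5 and 19.2 CPM (log2 fold change -0.66 ± 0.133, adjusted p = 0.00774). Zbp1, a sensor of Z-form nucleic acid that triggers cell death, was at 15.6 and 16.3 CPM against 30.6 and 19.4 CPM (log2 fold change -0.65, adjusted p = 0.0409). In each of these genes the 2 ConvR libraries were far apart, and replicate 2 was the higher. Mx2 was at 24.5 and 27.9 CPM in GF serum and at 37.1 and 36.2 CPM in ConvR serum, so the ConvR libraries lay close together and above both GF libraries (log2 fold change -0.49 ± 0.0982, adjusted p = 0.00792). The antibody receptor and ubiquitin ligase Trim21 behaved alike, at 23.7 and 23.1 CPM against 30.39 and 29.97 CPM (log2 fold change -0.37, adjusted p = 0.0174). Parp14, a mono-ADP-ribosyltransferase, was at 223 and 211 CPM against 328 and 255 CPM (log2 fold change -0.42, adjusted p = 0.0194). The remaining falls were smaller: Xaf1, a pro-apoptotic adaptor, fell by 0.33, Dhx58 by 0.32, and Eif2ak2, the kinase PKR that halts translation, by 0.30 on the log2 scale, the last with an adjusted p of 0.0499.

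Oasl1, a relative of the 2-5A synthetases that in mice represses translation of Irf7, moved the other way. It was at 124 and 138 CPM in GF serum and at 84.6 and 78.4 CPM in ConvR serum. The groups did not overlap, and the log2 fold change was 0.68 ± 0.113 (1.60-fold; adjusted p = 0.00251). Irf7 itself, the factor that amplifies interferon production, was at 54.6 and 59.7 CPM against 78.5 and 58.5 CPM, and the groups overlapped (adjusted p = 0.257). Isg15 was at 61.2 and 65.8 CPM against 81.3 and 66.8 CPM without overlap, but did not pass the test (log2 fold change -0.22, adjusted p = 0.309). Usp18, at 128 and 148 CPM against 152 and 132 CPM, overlapped (adjusted p = 0.849). The 24 members that did not pass ranged from -0.75 for Mx1 to 0.41 for Oas2 on the log2 scale, both from few counts.

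The number of falls called in GF serum depended on single libraries. Without replicate 2 of the ConvR female serum group, the Xist-rich one, Oasl1 was called (adjusted p = 0.0160) and 0 members fell. Without replicate 2 of the GF group the count was also 1 rise and 0 falls, without replicate 3 of the GF group 1 rise and 3 falls, and without replicate 3 of the ConvR group 1 rise and 15 falls. When 1 library is left out, its arm holds a lone library that is assumed to vary like the other groups. The folds moved less than the calls for some genes: over the 11 alternatives Trim21 stayed between -0.38 and -0.35, Xaf1 between -0.38 and -0.28 and Mx2 between -0.58 and -0.40 on the log2 scale. Others moved more, Zbp1 between -0.94 and -0.29, Parp14 between -0.59 and -0.23 and Ifit1 between -0.90 and -0.46. The median of the 34 genes was -0.14 without replicate 2 of the ConvR group, with 24 below 0. The Oasl1 rise kept an adjusted p of at most 0.0393 in all 11 alternatives tried. In the same comparison 4 of 8 hepatocyte markers fell (2 without replicate 2 of the ConvR group), led by Apoa1 at -0.97 on the log2 scale, and their sum was 18879.8 to 19210.5 CPM in GF serum against 20702 to 24508 CPM. Of the 29 tested markers of macrophages, endothelium, stellate cells, lymphocytes and bile duct cells, 0 passed edgeR's test. An unadjusted p below 0.05 was found for 5 of these markers, against 3678 of all 17405 genes tested. The part of these shifts in the result was not tested, and in bulk RNA fewer cells of a type and less RNA per cell cannot be told apart.

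**Figure D2:**
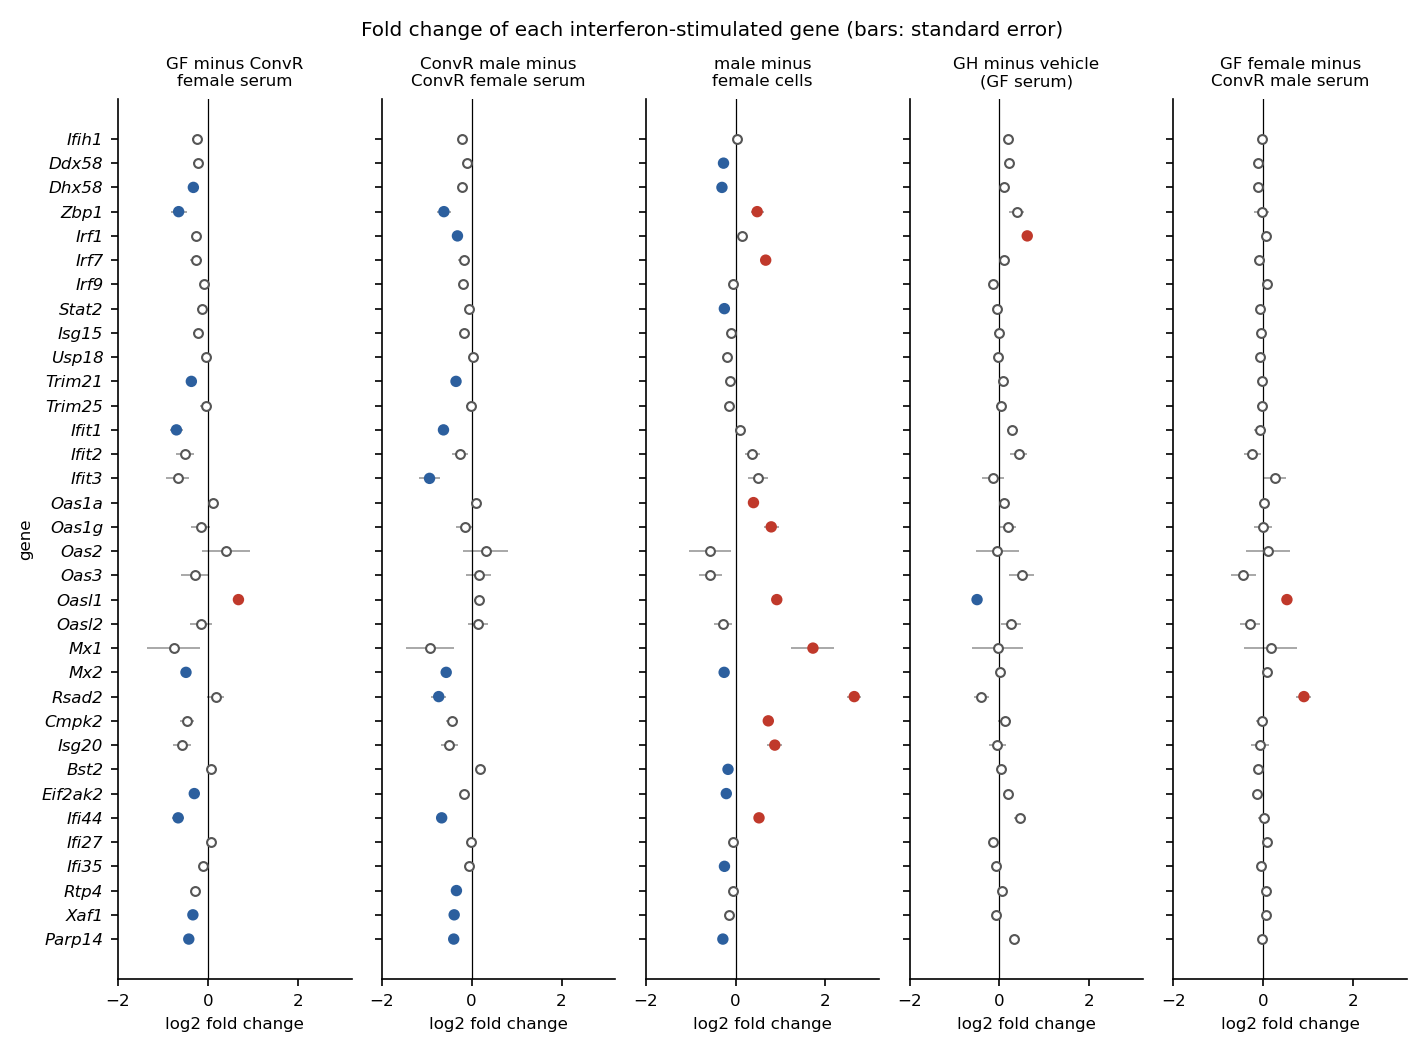
Log2 fold change (horizontal axis) of each of the 34 genes in the 5 comparisons, with bars of 1 standard error. Red points rose and blue points fell at an adjusted p below 0.05, and open points did not pass. The panels of GF and of ConvR male serum against ConvR female serum hold 9 and 11 blue points among 24 and 23 open ones, with Oasl1 as the red point of the first, and the panel of male against female cells holds points far to the right.

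ConvR male serum was compared with ConvR female serum on female cells, which asks whether the sex of the serum donor matters. With male serum 11 members fell and 0 rose, against 4.85% lower and 3.95% higher among all genes tested (8.8% in either direction). At an unadjusted p below 0.05 there were 17 members, against 4221 of all 17405 genes tested. DESeq2 called 1 rise and 12 falls among the members, and 943 rises and 992 falls among all 17405 genes. The median was -0.20, against 0.0015 over all genes, and 27 of the 34 genes were below 0. In 16 members every male serum library lay below both female serum libraries, against 18.6% of all genes. This comparison shares its ConvR female serum libraries with the one above, so the falls in both rest on the same 2 libraries.

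Ifit3, a partner of Ifit1, was at 2.81, 2.72 and 2.78 CPM in male serum and at 6.46 and 4.15 CPM in female serum (log2 fold change -0.94 ± 0.233, adjusted p = 0.0197). Its paralog Ifit3b, which can share reads with it, gave -0.96 (adjusted p = 0.0263). Ifit1 was at 35.8, 44.4 and 34.5 CPM against 68.0 and 50.2 CPM (log2 fold change -0.63 ± 0.123, adjusted p = 0.00474). Every male serum library lay below both female serum libraries in these genes. Rsad2, or viperin, which makes a chain-terminating nucleotide, was at 62.5, 43.9 and 46.5 CPM against 85.6 and 84.0 CPM (log2 fold change -0.73 ± 0.167, adjusted p = 0.0123). Its libraries in female serum were nearly equal, unlike those of Ifit1. Ifi44 was at 13.7, 15.0 and 13.6 CPM against 25.5 and 19.2 CPM (log2 fold change -0.67, adjusted p = 0.00265). Zbp1 was at 14.5, 18.3 and 16.1 CPM against 30.6 and 19.4 CPM (log2 fold change -0.62, adjusted p = 0.0252). Mx2 was at 25.7, 24.3 and 24.1 CPM against 37.1 and 36.2 CPM (log2 fold change -0.57 ± 0.0887, adjusted p = 0.00091). For Mx2 the libraries of each serum lay close together and the groups were clearly apart.

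Parp14, Xaf1, Trim21, Rtp4 and Irf1 also fell, by 0.40, 0.39, 0.35, 0.34 and 0.32 on the log2 scale. Rtp4 is a chaperone of membrane receptors that restrains flaviviruses, and Irf1 a factor that binds ISRE-like sites without Stat proteins. Oasl1 was at 102, 79.5 and 91.1 CPM against 84.6 and 78.4 CPM, overlapping (log2 fold change 0.16, adjusted p = 0.383). Irf7 (55.4, 70.1 and 56.3 CPM against 78.5 and 58.5 CPM), Isg15 (72.8, 69.9 and 53.2 CPM against 81.3 and 66.8 CPM) and Usp18 (140.0, 156 and 139 CPM against 152 and 132 CPM) overlapped as well, with adjusted p of 0.370, 0.321 and 0.867. Without replicate 2 of the ConvR female serum group 1 fall remained, that of Mx2 (log2 fold change -0.55, adjusted p = 0.0108). Mx2 kept an adjusted p of at most 0.0108 in all 12 alternatives. Some members that lost their call kept most of the size of their folds over the same alternatives. Trim21 stayed between -0.38 and -0.31, Rtp4 between -0.38 and -0.30 and Xaf1 between -0.44 and -0.34. Irf1 stayed between -0.39 and -0.27 and Rsad2 between -0.91 and -0.64. Others moved more: Ifit3 ranged from -1.22 to -0.58, Ifit1 from -0.83 to -0.39 and Ifi44 from -0.86 to -0.45. Parp14 ranged from -0.57 to -0.21 and Zbp1 from -0.91 to -0.25. The median of the 34 genes without replicate 2 was -0.076, with 22 below 0. Without both Xist-rich libraries 3 members fell and 1 rose. With all libraries kept, 5 of the 37 cell-type markers tested passed, beside 8.8% of all genes called in either direction. Cps1 and Trf of the hepatocyte list, Cd68 and Spp1 fell and Serpina1a rose. Outside the hepatocyte list 2 of 29 markers passed. Cd68 fell, while the median log2 fold change of the 8 tested macrophage markers was 0.19. The part of these shifts in the result was not tested.

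**Figure D3:**
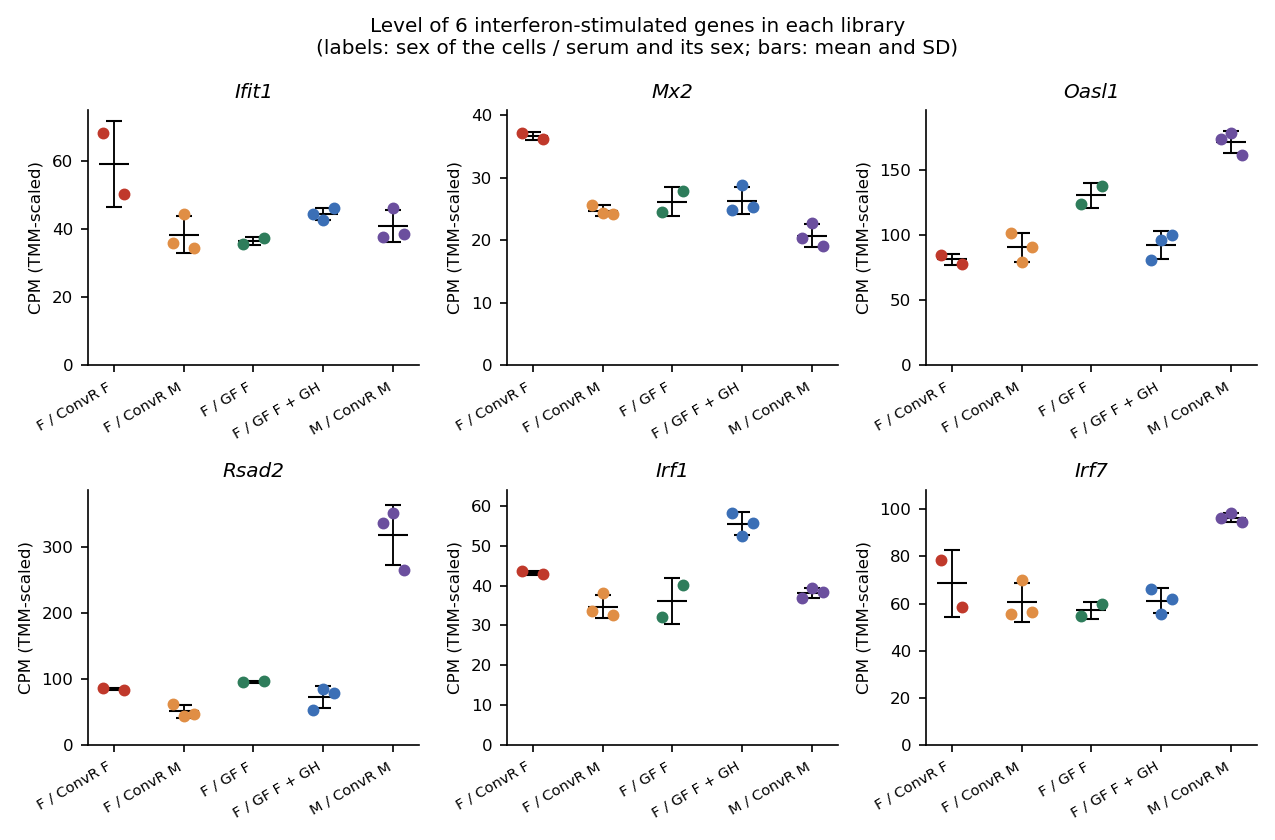
CPM (vertical axis, TMM-scaled) of 6 genes in each library as points, with the group mean and SD. Ifit1 and Mx2 are highest in female cells with ConvR female serum (F / ConvR F), Oasl1, Rsad2 and Irf7 in male cells (M / ConvR M), and Irf1 in the 3 libraries with GH.

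GF female serum and ConvR male serum, which were each set against ConvR female serum above, were also compared with one another on female cells. Here 2 members rose in GF serum, against 0.184% of all genes, and 0 fell, against 0.264% (0.448% in either direction). DESeq2 gave the same counts of members, and 119 rises and 192 falls among all 17405 genes. With an unadjusted p below 0.05 there were 2 members, against 1822 of all 17405 genes tested. Rsad2 was at 94.7 and 96.2 CPM in GF serum and at 62.5, 43.9 and 46.5 CPM in male serum (log2 fold change 0.91 ± 0.167, adjusted p = 0.0301). Oasl1 was at 124 and 138 CPM against 102, 79.5 and 91.1 CPM (log2 fold change 0.53 ± 0.102, adjusted p = 0.0349). Neither gene's groups overlapped. For Ifit1 the GF libraries, at 35.5 and 37.3 CPM, lay within the range of the male serum libraries, and the log2 fold change was -0.07 ± 0.127 (adjusted p = 0.894). Isg15, Irf7 and Usp18 overlapped too, with log2 fold changes of -0.04, -0.08 and -0.07. The median of the 34 genes was -0.027, against -0.0061 over all genes. Neither call held in the fits without replicate 2 of the GF group, replicate 3 of the GF group, replicate 2 of the male serum group or replicate 3 of the male serum group, where the adjusted p of Rsad2 was 0.0622 to 0.275 and that of Oasl1 0.0613 to 0.289. The folds stayed near their size, between 0.81 and 1.08 for Rsad2 and between 0.44 and 0.62 for Oasl1 over all 12 alternatives. Of the 37 cell-type markers tested, 1 passed in this comparison, Cd68 of the macrophage list at 0.65, against 0.448% of all genes. The median of the 8 tested macrophage markers went the other way, at -0.36, and the part of these shifts in the result was not tested.

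GH was compared with vehicle in female cells with GF female serum, which asks how a pulse of the hormone acts on cells in that serum. Irf1 rose and Oasl1 fell, against 0.511% higher and 0.0747% lower among all genes. Irf1 was at 58.3, 52.5 and 55.7 CPM with GH and at 32.1 and 40.2 CPM without, with no overlap (log2 fold change 0.62 ± 0.092, 1.54-fold; adjusted p = 0.00237). The GH libraries also lay above every other library of the study, whose Irf1 levels ran from 32.1 to 43.6 CPM. Of the 6 members with a GAS match, Irf1 was the one that passed here, and Bst2, Eif2ak2, Ifit2, Isg20 and Oas1a did not. Socs3, a feedback inhibitor of Jak kinases, rose as well, from 8.16 ± 0.635 to 13.2 ± 0.580 CPM (mean ± SD, n = 2 and n = 3; log2 fold change 0.69, edgeR adjusted p = 0.00483). Oasl1 was at 80.8, 96.5 and 101 CPM with GH and at 124 and 138 CPM without, again with no overlap (log2 fold change -0.50 ± 0.102, adjusted p = 0.0339). This fall and the rises of Oasl1 in GF serum against each ConvR serum rest on the same 2 GF libraries.

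The other 32 members did not pass, with log2 fold changes from -0.40 for Rsad2 to 0.50 for Oas3. An unadjusted p below 0.05 was found for 11 of the 34 genes, against 2222 of all 17405 genes tested. Ifit1 was at 44.3, 42.5 and 46.2 CPM with GH, above the 35.5 and 37.3 CPM without (log2 fold change 0.29, adjusted p = 0.368). Isg15 was at 64.7, 62.7 and 62.5 CPM against 61.2 and 65.8 CPM, Irf7 at 66.2, 55.8 and 61.8 CPM against 54.6 and 59.7 CPM, and Usp18 at 127, 139.6 and 139 CPM against 128 and 148 CPM. In these genes the groups overlapped. In 14 members the GH libraries were all above the GF libraries, and in 4 all below, against 16.6% and 15.3% of all genes. Irf1 lost its call without replicate 2 of the GF group (log2 fold change 0.47, adjusted p = 0.110). Oasl1 lost its call without replicate 2 of the GF group, replicate 3 of that group or replicate 1 of the GH group, with adjusted p of 0.139, 0.420 and 0.141, while its fold stayed between -0.57 and -0.41 over all 12 alternatives. Of the 37 cell-type markers tested, 0 passed edgeR's test here. Their unadjusted p was below 0.05 in 13 cases, against 2222 of all 17405 genes tested.

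Male cells were compared with female cells in the same ConvR male serum. Here 10 members rose and 8 fell, against 17.6% higher and 19.0% lower among all genes, so that 18 of 34 members stand beside 36.7% of all genes called in either direction. The members split: the effectors Rsad2, Mx1, Isg20 and Cmpk2, the synthetase relatives Oasl1, Oas1g and Oas1a, and Irf7, Ifi44 and Zbp1 were higher in male cells. Dhx58, Parp14, Ddx58, Mx2, Stat2, Ifi35, Eif2ak2 and Bst2 were lower, each by no more than 0.30 on the log2 scale. The median was -0.06, against -0.021 over all genes. The libraries of the 2 cell stocks did not overlap in 11 members that were higher and 8 that were lower in male cells, against 23.2% and 24.3% of all genes.

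Rsad2 was at 337, 352 and 266 CPM in male cells and at 62.5, 43.9 and 46.5 CPM in female cells. Every male library was far above every female one, and the log2 fold change was 2.64 ± 0.159 (6.24-fold; adjusted p = 2.28e-09). Cmpk2, a nucleotide kinase whose gene lies beside Rsad2 on chromosome 12, was at 29.7, 36.4 and 26.5 CPM against 17.9, 20.7 and 17.4 CPM (log2 fold change 0.73 ± 0.124, adjusted p = 0.000236). The male libraries of Cmpk2 again lay above all female ones. Mx1 was at 0.338, 1.29 and 1.27 CPM against 0.321, 0.250 and 0.303 CPM, so that 1 male library lay at the female level (log2 fold change 1.72 ± 0.478, adjusted p = 0.00958). The Mx1 call was lost without male replicate 2 (adjusted p = 0.0509). Isg20, an exonuclease of viral RNA, was at 5.04, 4.91 and 3.95 CPM against 2.36, 2.70 and 2.53 CPM (log2 fold change 0.87, adjusted p = 0.000726).

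Oasl1 was at 174, 178 and 162 CPM in male cells against 102, 79.5 and 91.1 CPM in female cells (log2 fold change 0.92 ± 0.0926, adjusted p = 1.12e-06). Oas1g, one of the enzymes that make the 2-5A signal for RNase L, was at 3.29, 3.49 and 3.57 CPM against 2.14, 2.06 and 1.77 CPM (log2 fold change 0.79, adjusted p = 0.00166), with neither gene's groups overlapping. Oas1a gave 0.40 (adjusted p = 0.00371). Near-identical copies such as Oas1a and Oas1g can share reads, so how the rise divides between them is uncertain. Oas2, Oas3 and Oasl2 did not pass, at -0.57, -0.56 and -0.28. Irf7 was at 96.2, 98.5 and 94.7 CPM against 55.4, 70.1 and 56.3 CPM (log2 fold change 0.67 ± 0.105, adjusted p = 0.000108). Of the other factors of the pathway, Stat2 was lower in every male library, at 83.0, 82.8 and 86.7 CPM against 113, 92.6 and 94.5 CPM (log2 fold change -0.25, adjusted p = 0.0213), and Irf9 (-0.06) and Irf1 (0.14) did not pass.

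The sensors divided in the same way. Zbp1 rose by 0.48 (adjusted p = 0.0173), while Dhx58, at 38.5, 40.9 and 38.7 CPM against 49.3, 50.1 and 46.4 CPM, fell (log2 fold change -0.30, adjusted p = 0.00363). Ddx58 was at 93.0, 105 and 96.2 CPM against 110.0, 128 and 117 CPM (log2 fold change -0.27, adjusted p = 0.0210). Both helicases were thus lower in every male library, while for the related helicase Ifih1, at 82.6, 92.9 and 82.7 CPM against 77.5, 86.4 and 89.0 CPM, the groups overlapped. Parp14 was at 177, 197 and 171 CPM against 217, 218 and 228 CPM, Ifi35 at 96.9, 99.3 and 93.7 CPM against 107, 127 and 110.4 CPM, and Mx2 at 20.4, 22.7 and 19.1 CPM against 25.7, 24.3 and 24.1 CPM. Their log2 fold changes were -0.28, -0.25 and -0.25, with adjusted p of 0.0128, 0.00897 and 0.0238. Mx1 and Mx2, adjacent genes on chromosome 16, therefore had opposite signs. Ifit1 (37.6, 46.2 and 38.4 CPM against 35.8, 44.4 and 34.5 CPM) and Isg15 (60.0, 63.2 and 60.3 CPM against 72.8, 69.9 and 53.2 CPM) overlapped between the cells, with adjusted p of 0.563 and 0.490. Usp18 was at 124, 136 and 124 CPM against 140.0, 156 and 139 CPM, without overlap (log2 fold change -0.18, adjusted p = 0.0796).

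The rises of Rsad2, Oasl1, Irf7, Cmpk2, Isg20, Oas1g, Oas1a and Ifi44 and the falls of Dhx58 and Ifi35 were called under all 13 alternatives, whereas Ddx58, Mx2, Stat2, Parp14, Bst2, Eif2ak2, Zbp1 and Mx1 lost their call in at least 1. With scaling by library size alone the members gave 10 rises and 12 falls, and all genes 2349 rises and 4644 falls in place of 3065 and 3314. Endothelial markers moved with this comparison: 6 of 8 rose, and their sum was 73.6 to 75.9 CPM in male cells against 38.5 to 41.7 CPM. The macrophage list summed to 151 to 171 CPM against 83.0 to 102 CPM, but most of this sum was Cd68 (mean 110.7 CPM over all libraries). Cd68 alone passed the test, at 0.96, while the median log2 fold change of the 8 tested macrophage markers was -0.37. Of the other lists, 4 of 7 stellate cell markers and 6 of 8 hepatocyte markers rose, beside 36.7% of all genes called in either direction. In the same lists Col1a1 fell by 1.55 and Hnf4a by 0.33 on the log2 scale. The part of these shifts in the result was not tested.

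Upstream of the members, transcripts of the interferons themselves were nearly undetected. Ifnb1 had 10 counts over all 13 libraries and at most 5 in any of them, and Ifng had 0. Of 11 interferon genes 1 was tested, Ifnk, whose mean level was 31.4 CPM. It was lower in male than in female cells (log2 fold change -1.42, adjusted p = 4.48e-07) and did not pass in the other 4 comparisons. Ifnk lies inside Mob3b on the opposite strand, and because the use of strand in the counting is not given, its reads cannot be told apart from those of Mob3b. The receptor subunit Ifnar1 was at 94.6 to 112 CPM over all libraries and passed in none of the 5 comparisons.

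Among the 15 receptor and Jak-Stat genes listed, 2 fell with male against female serum, led by Ifngr1 at -0.46 (-0.42, adjusted p = 0.0292, without replicate 2 of the ConvR female serum group), against 4.85% lower among all genes. In GF against ConvR female serum 0 passed edgeR's test and 4 had an unadjusted p below 0.05, against 3678 of all 17405 genes tested. With GH 1 rose, Socs3, against 0.511% higher among all genes, and in male against female cells 4 rose, led by Socs3 at 0.89, Ifnlr1 at 0.46 and Ifnar2 at 0.40, and 1 fell, so that 5 of 15 were called beside 36.7% of all genes. In the induction pathway, the sensors, adaptors and kinases that lead to interferon production, 18 of 19 genes were tested. Against ConvR female serum, 0 rose and 1 fell with GF serum, beside 6.41% of all genes called in either direction. With male serum 1 rose, Traf3 at 0.24, and 2 fell, beside 8.8% of all genes. GH gave 1 rise, against 0.511% higher among all genes. Trim30a, a brake on Toll-like receptor signalling, fell by 0.59 with GF serum and by 0.65 with male serum, both against ConvR female serum. Trim30a gave -0.34 and -0.40 without replicate 2 of the ConvR female serum group and did not pass (adjusted p = 0.370 and 0.154). Ikbke, a kinase that activates Irf3, fell by 0.69 with male serum (-0.68, adjusted p = 0.0158, without that replicate) and rose by 0.67 with GH (0.54, adjusted p = 0.0583, without replicate 1 of the GH group). In male against female cells 2 rose and 5 fell, with Tlr4 at 0.78, Irf5 at -0.44 and Myd88 at -0.42, which is 7 of 18 beside 36.7% of all genes.

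A list of 34 further classical interferon targets, 33 of them tested, was read in the same comparisons. With GF serum 0 rose and 8 fell, led by Slfn8 at -1.01, Gm4951 at -0.998 and Phf11d at -0.79, against 3.54% lower among all genes. With male serum 0 rose and 8 fell, led by Ifit3b at -0.96, Gm4951 at -0.95 and Slfn8 at -0.87, against 4.85% lower among all genes. Of these genes 0 and 1 fell without replicate 2 of the ConvR female serum group, and 26 and 24 of the 33 were below 0, with medians of -0.14 and -0.12. Male against female cells gave 9 rises and 7 falls, with Slfn2 at 0.90, Gm4951 at 0.70 and Pml at -0.67, against 17.6% higher and 19.0% lower among all genes. GH gave 1 rise, Slfn2 at 0.76, which did not pass without replicate 1 of the GH group (0.71, adjusted p = 0.0807). Cxcl10 is a chemokine that interferons induce and that draws T cells. It was at 18.2 and 19.5 CPM in GF serum, 3.47 and 3.62 CPM in ConvR female serum, 9.96, 4.22 and 8.98 CPM in ConvR male serum, and 69.0, 67.8 and 67.2 CPM in male cells. It thus rose with GF serum by 2.41 on the log2 scale (adjusted p = 0.000164; 2.38, adjusted p = 0.0037, without replicate 2 of the ConvR female serum group) where Ifit1 fell, and by 3.13 in male against female cells (adjusted p = 1.02e-08).

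Set in order, the levels show how far the group with ConvR female serum stood out. Among the 4 groups of female cells it had the highest mean of 21 of the 34 genes, against 30.9% of all genes, and of 15 without its replicate 2, against 31.2%. The GF group had the lowest mean of 14, against 26.2% of all genes. With the male cells included, ConvR female serum was highest for 16 genes and the male cells for 9, against 21.8% and 30.7% of all genes. The male cells were also lowest for 17 genes, against 34.4% of all genes. Leaving out its replicate 2, ConvR female serum was highest for 12 genes and the male cells for 11, against 23% and 30.2% of all genes. Among the 4 groups of female cells, the GF group was then lowest for 11 and ConvR female serum for 9, against 22.5% and 32.2%. Library by library, the median distance of the 34 genes from their mean over the female-cell libraries was 0.28 in replicate 2 of the ConvR female serum group, with 30 of 34 genes above 0. In replicate 3 of that group it was 0.04, with 20 above. The other 8 female-cell libraries lay between -0.12 and 0.03, and the male-cell libraries between -0.12 and -0.05. In this median of the 34 genes, the 2 libraries of the ConvR female serum group thus differed by more than any other 2 libraries of female cells in one group. Over the whole table they did not. Their chi-square per degree of freedom was 34.2, against 53.4 for replicates 1 and 2 of the ConvR male serum group.

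**Figure D4:**
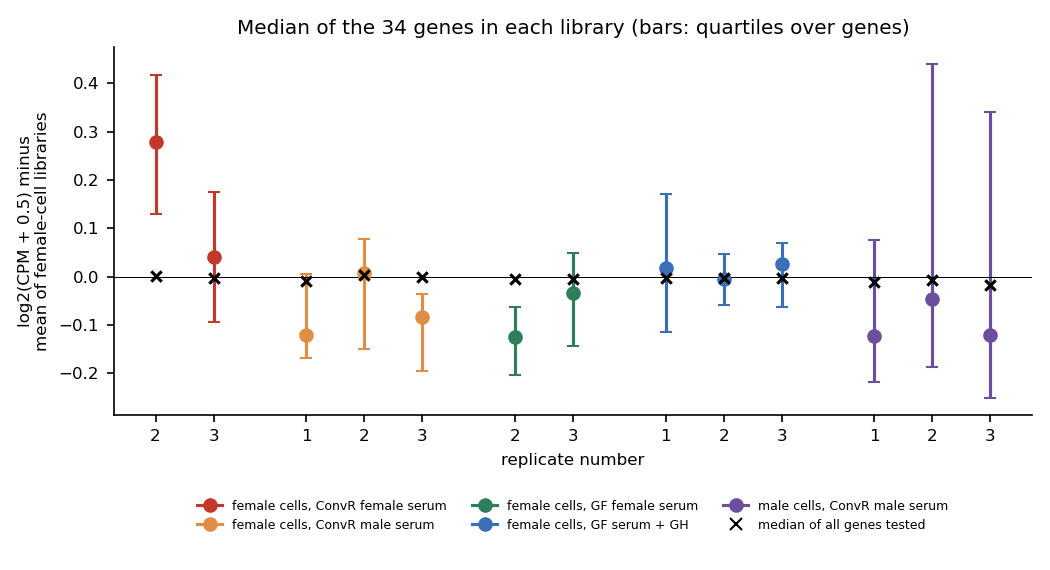
Median over the 34 genes of log2(CPM + 0.5) minus the mean of the 10 female-cell libraries (vertical axis) in each library, with quartiles over genes as bars. Crosses mark the median of all genes tested. Replicate 2 of the ConvR female serum group stands at 0.28 and the other female-cell libraries between -0.12 and 0.04, while the crosses stay near 0.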

How the data were processed

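Total RNA from 15 labelled samples of primary mouse hepatocytes in 5 groups was sequenced with a stranded kit after depletion of ribosomal RNA, per the labels' protocols. The deposited table holds raw read counts over exons per gene. The submitters' processing notes name STAR 2.4.0i and build mm10. The counter, gene annotation and strand setting were not given in the sources used here. Columns were matched to samples by name. In 2 columns the same name is used, so neither could be assigned and both were left out, which left 13 libraries with 34097400 to 48742274 counts each. In the GF serum and ConvR female serum groups this leaves 2 libraries each.

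Counts were tested with edgeR 4.0.16 (limma 3.58.1, R 4.3.3): filterByExpr with a minimum count of 10, TMM scaling, and a quasi-likelihood fit of all 5 groups together with 8 residual degrees of freedom, so that all groups share one estimate of the spread. The biological coefficient of variation was 9.02%. P-values were adjusted by the Benjamini-Hochberg method over 17405 genes, with a threshold of 0.05. The procedure was tested on simulated counts. Replicates of a group differed from each other by 5.46 to 53.4 in chi-square per degree of freedom, so none was counted as a duplicate. Gene positions and exon lengths come from GENCODE release M21, and promoter windows from RefSeq.

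The members, the pathway and marker lists and the tests were chosen with earlier results of these data known. Library values are printed for Isg15, Irf7, Usp18, Ifit1 and Oasl1 and, per comparison, for at most 6 members that rose and 6 that fell, taken by size of fold among those whose groups do not overlap. At most 3 members of a pathway list are named per comparison, with Ifnb1, Ifnar1 and Cxcl10 named whatever their values. Another gene that this rule names is not reported here. Names outside this rule were chosen after their values were seen. The alternatives were DESeq2 1.42.0, its size factors, scaling by library size, no low-count filter, the replicate number as a block, only the 2 groups compared, each library left out, and both Xist-rich libraries left out. Leaving these libraries out of the pathway lists and of the order of group means was chosen after seeing the data.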

Additional observations from a re-analysis of the deposited data

How the results depend on the processing

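Counts of genes past the threshold depended on single libraries in the comparisons with 2 libraries in an arm. With 1 library left out at a time, the members called ranged from 1 to 16 for GF against ConvR female serum, from 1 to 13 for ConvR male against female serum, from 0 to 2 for GH and from 0 to 2 for GF against ConvR male serum, and all genes called from 278 to 1233, 676 to 1654, 33 to 190 and 2 to 158. Fitting only the 2 groups compared gave 4 members and 653 genes, 6 members and 487 genes, 159 genes for GH, and 1 member and 75 genes for GF against ConvR male serum. Without both Xist-rich libraries there were 1 member and 367 genes, 4 members and 836 genes, 1 member for GH, and 279 genes for GF against ConvR male serum. Without the low-count filter 1731 genes were called for GF against ConvR female serum, 7 members and 796 genes for GH, and 622 genes for GF against ConvR male serum. DESeq2 called 4 members and 272 genes for GH and 311 genes for GF against ConvR male serum. The comparison of male and female cells gave 13 to 22 members under its alternatives, against 18, and 5259 to 6993 of all genes, against 6379. Usp18 changed sign in GF against ConvR female serum, where the main value of -0.04 ranged from -0.15 to 0.06 with 1 library left out and was 0.064 without both Xist-rich libraries. It also did in male against female serum, where 0.03 ranged from -0.067 to 0.14 with 1 library left out. Irf7 in male against female serum, at -0.18, ranged from -0.37 to 0.049 with 1 library left out and was 0.047 without both Xist-rich libraries. None of these values passed the test. The causes of these changes were not tested, beyond the smaller number of libraries. The labels do not say that replicate numbers mark a shared day or animal, and the deviations of same-numbered libraries correlated across genes by -0.016 to 0.13, with 1 of 3 pairs above 0.1 for male against female cells. The numbers were therefore not taken to pair the libraries. With the replicate number as a block, 9, 9, 18, 1 and 0 members were called for GF against ConvR female serum, male against female serum, male against female cells, GH and GF against ConvR male serum. In the same order, 981, 1189, 6266, 62 and 31 of all 17405 genes were called.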

Other observations

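Gene groups next to the interferon-stimulated genes were read in the same fits. Of 14 genes of MHC class I presentation and the immunoproteasome, 6 rose and 2 fell in male against female cells, where 36.7% of all genes were called. B2m, the light chain of class I molecules, was at 1114 ± 33.7 CPM in female and 1925 ± 59.2 CPM in male cells (mean ± SD, n = 3 each; edgeR log2 fold change 0.79, adjusted p = 1.69e-08). The heavy chain H2-K1 gave 0.63 and the non-classical H2-T23 gave 0.49, while the proteasome subunit Psmb9 fell by 0.37. The median log2 fold change of the 14 genes was -0.028 in GF against ConvR female serum and -0.043 in male against female serum. With GF serum 0 rose and 2 fell, Psmb9 by 0.50 and the peptide transporter Tap1 by 0.47, against 3.54% lower among all genes. With male serum 0 rose and 1 fell, Tap1 by 0.51, against 4.85% lower among all genes. Without replicate 2 of the ConvR female serum group these values were -0.38, -0.39 and -0.43, and none passed edgeR's test (adjusted p = 0.313, 0.173 and 0.0600). These comparisons share the ConvR female serum libraries.

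Of 12 GTPases known mainly as targets of interferon gamma, 11 were tested, and 5 fell in each comparison against ConvR female serum, where 3.54% (GF serum) and 4.85% (male serum) of all genes were lower. Without replicate 2 of the ConvR female serum group 0 fell with GF serum and 2 with male serum, with medians of -0.28 and -0.24 over the 11 genes and 10 and 9 of them below 0. Iigp1, which coats the vacuoles of intracellular parasites, gave -1.05 with GF serum and -1.26 with ConvR male serum, followed by Gbp6 at -0.72 in both. In male against female cells 3 rose and 5 fell, beside 36.7% of all genes called, with Iigp1 at 2.28 (adjusted p = 9.19e-09) and Tgtp1 at -0.65. Of the 4 interferon-inducible chemokines, Cxcl11 rose by 0.69 with GF serum and by 1.26 with ConvR male serum against ConvR female serum (1.06 and 1.64 without replicate 2 of the ConvR female serum group), and was lower in male than in female cells (-1.67), where Cxcl10 and Ccl5 rose by 3.13 and 2.77 on the log2 scale.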
